A study of Mus musculus with 2 samples.

Results

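Small nucleolar RNA (snoRNA) genes were examined in inflammatory monocytes of the colon, compared between wild-type (WT) mice and mice lacking the NOD-like receptor gene Nlrp6 (Nlrp6-/-). Members were chosen by symbol (Snord or Snora followed by a digit) and by measured level: the higher of a gene's levels on the 2 arrays had to be at least 9.51 on the linear scale, a log2 value that lies between the noise floors of the arrays given below. Of 73 such genes measured by a probe set that names no other gene, 46 met this level, out of 22180 genes in all: 29 of 47 with a C/D box (Snord) and 17 of 26 with an H/ACA box (Snora). The threshold used the levels, so the level of a member is a description. It also admits a gene through the array on which it is brighter, which bears on every count below.

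Both genotypes were labelled C57BL/6. Mice of each were injected with 10 mg/kg of the carcinogen azoxymethane (AOM) and were then given dextran sodium sulfate (DSS), an agent that damages the gut lining, at 2% for 5 days starting on day 5. On day 10, monocytes positive for CD11b, with high Ly6C and without CD3 or Ly6G, were sorted from the colon lamina propria, and the number of mice pooled is not given in the labels. RNA of each genotype was measured on 1 Affymetrix Mouse Gene 2.1 ST array. With 1 array per genotype there are no replicates, so values carry no error and no p-value, and in every difference genotype and sample cannot be told apart.

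snoRNAs are short RNAs of the nucleolus that guide chemical modification of ribosomal RNA. C/D box snoRNAs carry the methyltransferase fibrillarin and direct methylation of ribose, and H/ACA box snoRNAs carry the pseudouridine synthase dyskerin and direct the conversion of uridine to pseudouridine. A few in both classes act instead in cutting the ribosomal RNA precursor. Most mammalian snoRNAs are cut from introns of a host gene, often a gene for a ribosomal protein or translation factor, or a noncoding gene whose spliced transcript has no known protein product. A monocyte in inflamed tissue needs ribosomes to make its secreted proteins, and the snoRNA set is part of the machinery that makes them.

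The genes were looked up in RefSeq's table of mouse genes (assembly GRCm38.p6). All 46 members have the gene type snoRNA there, a type that both classes share, so the class rests on the symbol. Below the level threshold, Snord73b has the type snRNA. The C/D members had a median gene length of 68 bases (range 48 to 221) and the H/ACA members 117 bases (61 to 205), and the 27 genes below the level threshold were of like length, with medians of 64.5 and 122 bases. By median, H/ACA genes were the longer class among members and non-members alike, with overlapping ranges.

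Most snoRNA members lay higher on the Nlrp6-/- array. Of the 29 C/D members, 22 were higher by any amount, against 51.1% of all 9497 genes past the same level. The median C/D difference, Nlrp6-/- minus WT on the log2 scale, was 0.31, and the median H/ACA difference was 0.28, with 11 of 17 higher, while the median of all genes was 0.01. The choice of members bears on these values. Of the C/D members, 5 passed the level in Nlrp6-/- only and 1 in WT only, and of the H/ACA members 4 passed in Nlrp6-/- only and 0 in WT only. The 23 C/D members past the level on both arrays had a median of 0.31 with 17 higher, and the 13 such H/ACA members a median of 0.12 with 7 higher. Over all 73 genes with no level required, the medians were 0.21 for 47 C/D genes and 0.13 for 26 H/ACA genes.

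A difference of at least 1.5-fold was counted after each level was held at or above a noise floor for its array. The rule acts on levels and does not compare a difference with the noise of differences. That floor was the 95th percentile of 1390 olfactory and vomeronasal receptor genes, which monocytes are not known to use, at 3.26 in WT and 3.23 in Nlrp6-/-. A level under the floor was replaced by the floor, which turns a difference into a lower bound. By this rule 5 of 29 C/D members were at least 1.5-fold higher in Nlrp6-/- (17.2%), where 6.23% of all genes were. In the other direction 1 of 29 was at least 1.5-fold lower, against 3.06% of all genes, which is near the background. Of the H/ACA members 2 of 17 were at least 1.5-fold higher and 0 lower. At 2-fold, 2 C/D members and 1 H/ACA member were higher, where 1.62% of all genes were, and 0 of 46 were lower, where 0.326% were. For scale, the SD of the difference was 0.19 among all receptor genes, most of which are below the level asked of members, 0.31 among the 83 receptor genes past that level, and 0.39 among all genes past it.

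**Figure D1:**
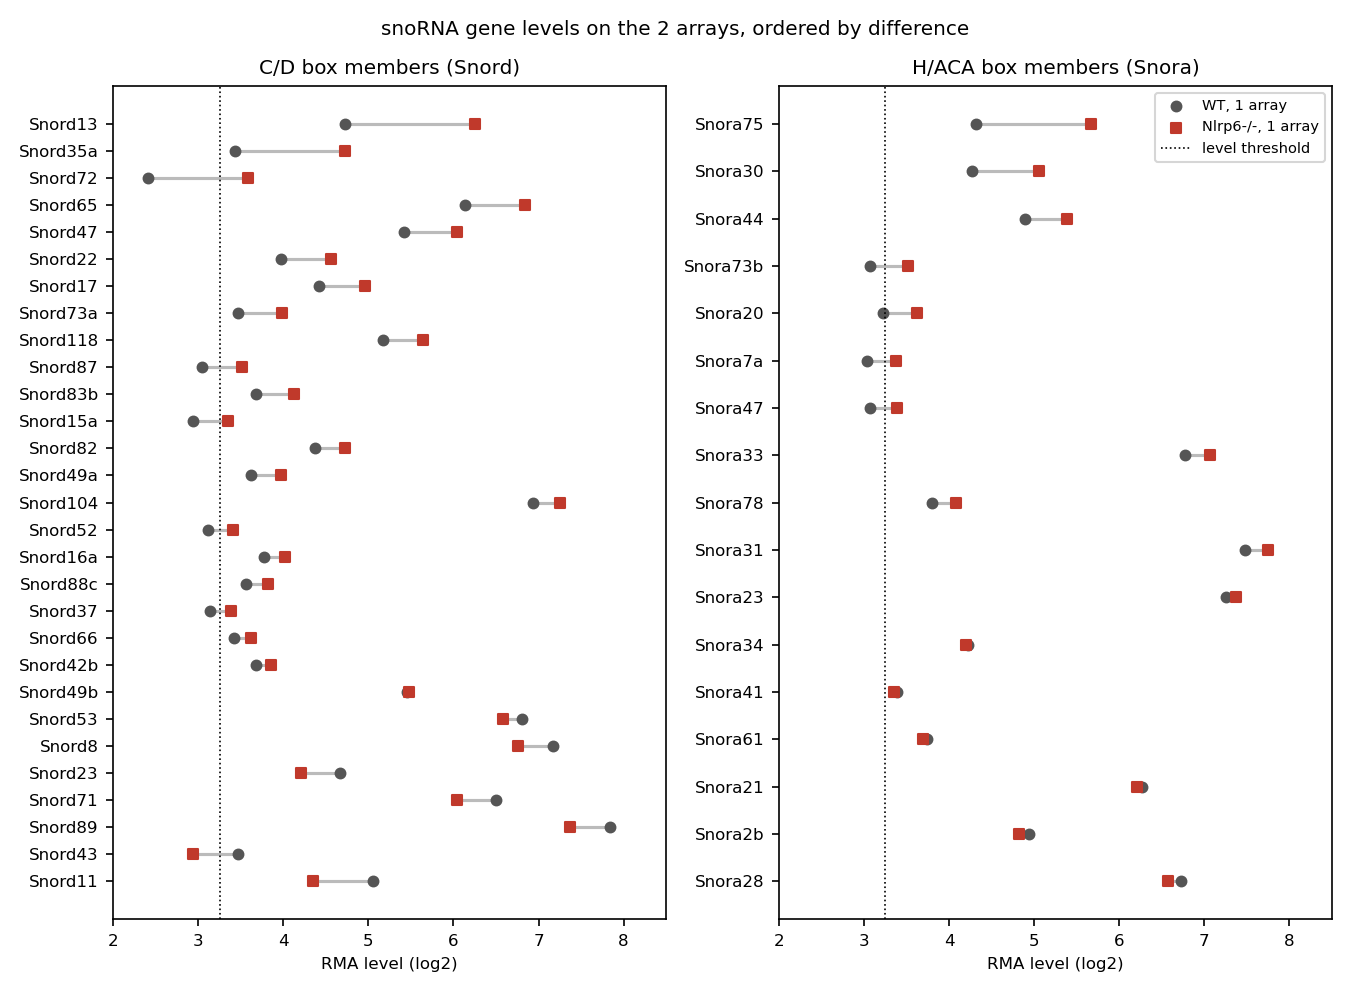
RMA level (log2, x axis) of each of the 29 C/D and 17 H/ACA snoRNA members on the WT array (grey circles) and the Nlrp6-/- array (red squares), 1 array each, ordered by difference; the dotted line is the level threshold. Red squares lie to the right of the grey circles for 22 C/D and 11 H/ACA members, with the widest gap at Snord13 (4.73 and 6.25).

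Among C/D genes, Snord13 had the largest difference. It was at 4.73 in WT and 6.25 in Nlrp6-/-, 2.87-fold higher. Snord13 guides the acetylation of the small-subunit ribosomal RNA rather than a methylation, and no gene of the RefSeq table contains it. Snord118, known as U8, acts in processing of the large-subunit ribosomal RNA and also has no containing gene. It was at 5.17 and 5.64, a difference of 0.47 that stayed under 1.5-fold. Snord22, known as U22, is needed for maturation of the small-subunit RNA. It was at 3.97 in WT and 4.55 in Nlrp6-/-, 1.502-fold higher and just past the threshold. These 3 genes with a role in acetylation or processing were all higher on the Nlrp6-/- array, as were 22 of all 29 C/D members. Snord89, the other C/D member with no containing gene, went the other way, at 7.84 in WT and 7.37 in Nlrp6-/-.

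The C/D genes inside noncoding host genes were all higher in Nlrp6-/-, by amounts from 0.03 to 0.70. Snord65, Snord49a and Snord49b lie in the same host, 2410006H16Rik. Snord65 was at 6.14 and 6.84, 1.63-fold higher, Snord49a at 3.62 and 3.97, and Snord49b at 5.46 and 5.48. The 3 genes of this host thus ranged over 0.68 in their differences. Snord104 was at 6.94 in WT and 7.25 in Nlrp6-/-. Snord52, in 1110038B12Rik, was under the floor in WT at 3.12 and at 3.41 in Nlrp6-/-, at least 1.10-fold higher. Snord47, which lies in the snoRNA host Gas5, was at 5.42 and 6.04, 1.54-fold higher. Snord87, within both Snhg6 and Mcmdc2, was under the floor in WT at 3.04 and at 3.51 in Nlrp6-/-, at least 1.19-fold higher.

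Of the C/D genes inside ribosomal protein genes, Snord35a stood out. It was at 3.43 in WT and 4.72 in Nlrp6-/-, 2.45-fold higher. Snord35a is hosted by Rpl13a, a gene whose snoRNAs are known from work on metabolic and oxidative stress. Snord72, in Rpl37, was at 2.41 in WT, well under the floor, and at 3.59 in Nlrp6-/-. Its measured difference was 1.18, but against the floor it was only at least 1.25-fold higher. Snord73a, in Rps3a1, was at 3.47 and 3.98. Snord83b and Snord43, which share the host Rpl3, pointed in opposite directions: Snord83b was at 3.68 and 4.12 (WT and Nlrp6-/-), and Snord43 was at 3.47 in WT and under the floor at 2.94 in Nlrp6-/-, at least 1.17-fold lower. The remaining ones differed by less. Snord15a was at 2.94 and 3.34, under the floor in WT, Snord16a at 3.77 and 4.02, and Snord42b at 3.68 and 3.86. In this group Snord35a alone passed 1.5-fold.

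The C/D genes inside other protein-coding genes were split. Snord11, in Nop58, the gene of a core C/D protein, was the only C/D member at least 1.5-fold lower, at 5.06 in WT and 4.35 in Nlrp6-/-, 1.63-fold. Snord23, in the ribosome assembly gene Nop53, was at 4.67 and 4.21, and Snord53, in the processome gene Wdr43, at 6.80 and 6.58. All 3 were lower on the Nlrp6-/- array, while Snord82, in the nucleolin gene Ncl, was higher, at 4.38 and 4.73. Snord17, in Snx5, was at 4.42 and 4.97. Snord88c was at 3.56 and 3.81 and Snord66, in the translation initiation gene Eif4g1, at 3.42 and 3.62. Snord37, in the elongation factor gene Eef2, was under the floor in WT at 3.14 and at 3.39 in Nlrp6-/-. A pair of C/D genes that each lie within a protein-coding and a noncoding gene were lower: Snord8, within Chd8 and Gm26590, at 7.16 and 6.76, and Snord71, within Ap1g1 and Gm17344, at 6.501 and 6.04.

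Among H/ACA genes, Snora75 had the largest difference. It was at 4.32 in WT and 5.67 in Nlrp6-/-, 2.55-fold higher. Snora75 lies in Ncl together with Snord82, and Ncl encodes nucleolin, an abundant nucleolar protein. Snora30, within the chromatin remodeller gene Srcap, was at 4.26 and 5.06, 1.74-fold higher. These were the H/ACA members past 1.5-fold.

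The H/ACA genes of noncoding hosts were Snora44, Snora61 and Snora73b. Snora44 was at 4.89 in WT and 5.39 in Nlrp6-/-, while Snora61, in the same host Snhg12, was level at 3.73 and 3.69. Snora73b belongs to the pair known as U17, which acts in cutting the ribosomal RNA precursor. It was under the floor in WT at 3.07 and at 3.52 in Nlrp6-/-, at least 1.19-fold higher, and its partner Snora73a was below the level threshold at 3.09 and 3.16. Snora78, within Rps2 and Snhg9, was at 3.80 and 4.08.

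The other H/ACA members differed little. Of those in ribosomal protein genes, Snora33 in Rps12 was at 6.77 and 7.07, Snora21 in Rpl23 at 6.26 and 6.21, and Snora7a in Rpl32 at 3.04 and 3.37, under the floor in WT. Snora33 has a second probe set, dimmer, at 2.87 and 3.48, and both were higher in Nlrp6-/-. Of those in other genes, Snora31 in Tpt1 was at 7.48 and 7.75, Snora23 in Ipo7 at 7.25 and 7.37, and Snora28 in Eif5 at 6.73 and 6.57. Snora2b and Snora34, neighbours in Kansl2, were at 4.94 and 4.82 and at 4.22 and 4.20. Snora41 in Eef1b2 was at 3.38 and 3.36. Snora20 in the chaperonin gene Tcp1 was at 3.22 and 3.63, at least 1.28-fold higher, and Snora47 in Zbed3 at 3.06 and 3.39, at least 1.09-fold higher. The differences of the H/ACA members ran from -0.15 to 1.35, so that none was far below 0, whereas those of the C/D members ran from -0.71 to 1.52.

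Members near the level threshold were dim on both arrays. Just inside it were Snord15a, Snord37 and Snord52, and Snora7a, Snora41 and Snora47. Just outside were Snord85 at 3.22 and 2.93, Snord110 at 2.50 and 3.21 and Snord58b at 2.98 and 3.15, and for H/ACA Snora73a, Snora68 at 2.81 and 3.02 and Snora74a at 2.59 and 2.85. Snord110 differed by 0.72 in measured level, but both of its levels were under the floor.

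Host genes were compared with the snoRNAs they contain, as far as the RefSeq gene table shows a gene inside the span of another (it gives no strand). Of the 46 members, 38 lay in 1 gene, 5 in several and 3 in none. For 33 members the single host had a probe set of its own past the level, which gave 27 host genes. The host genes had a median difference of 0.21, with 17 of 27 higher, where 51.1% of all genes past the level were. Of the 27, 2 (7.41%) were at least 1.5-fold higher and 0 lower, which is near the 6.23% and 3.06% of all genes. The snoRNA's measured difference exceeded that of its host for 18 of 33 members, and the median of snoRNA minus host was 0.06. With levels under the floor set to the floor, 15 of 33 exceeded their host and the median was -0.02. Over members past the level on both arrays the count was 12 of 25. Across the 33 members Pearson's r was 0.20 and Spearman's rho 0.34. All points share the same 2 arrays, and members of 1 host share its value.

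The noncoding hosts were the highest of the host groups. The 5 measured had differences from 0.37 to 0.84 with a median of 0.54, and the 8 members they contain had a median of 0.40. The 7 measured ribosomal protein hosts had a median of 0.01, from -0.11 to 0.52, while the 8 members in them had a median of 0.32. The 15 other protein-coding hosts had a median of 0.14 and their 17 members 0.25. These medians use measured differences, without the floor, and each group holds members that passed the level in Nlrp6-/- only. In ribosomal protein hosts these were Snord15a and Snora7a, at least 0.08 and 0.11 higher against the floor. Snord43 there passed in WT only. In noncoding hosts they were Snord52 and Snora73b, and in other protein-coding hosts Snord37, Snora20 and Snora47. Group medians with bounds were not computed. Snord65 and its host 2410006H16Rik were close in difference, the host being at 8.504 in WT and 9.05 in Nlrp6-/-. So were Snord22 and Snhg1, the latter at 6.55 and 7.08, and Snord73a and Rps3a1, the latter at 9.69 and 10.21.

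A few snoRNAs were far from their host. Snora30 was higher while Srcap was lower, at 7.67 in WT and 7.12 in Nlrp6-/-, a gap of 1.35 between the differences. Snora75 exceeded Ncl, at 7.71 and 8.001, by 1.06. Snord11 was lower while Nop58 was higher, at 5.10 and 5.59, a gap of -1.20. Snora61 lay below Snhg12, at 5.23 and 6.01, by -0.82. In all, 2 members were at least 1.5-fold above and 2 at least 1.5-fold below the difference of their host. Rpl13a and Gas5 have no probe set of their own, so Snord35a and Snord47 could not be set beside these hosts.

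Members that share a containing gene also differed from one another on these arrays. Of 5 hosts with several members, the gap between the highest and lowest difference was 0.11 in Kansl2, 0.54 in Snhg12, 0.68 in 2410006H16Rik, at least 0.67 in Rpl3, where Snord43 was under the floor in Nlrp6-/-, and 1.00 in Ncl. The gaps in 2410006H16Rik, Rpl3 and Ncl were larger than 1.5-fold. For scale, the SD of the difference was 0.39 among all genes past the level. Whether these gaps exceed those between unrelated genes was not tested.

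**Figure D2:**
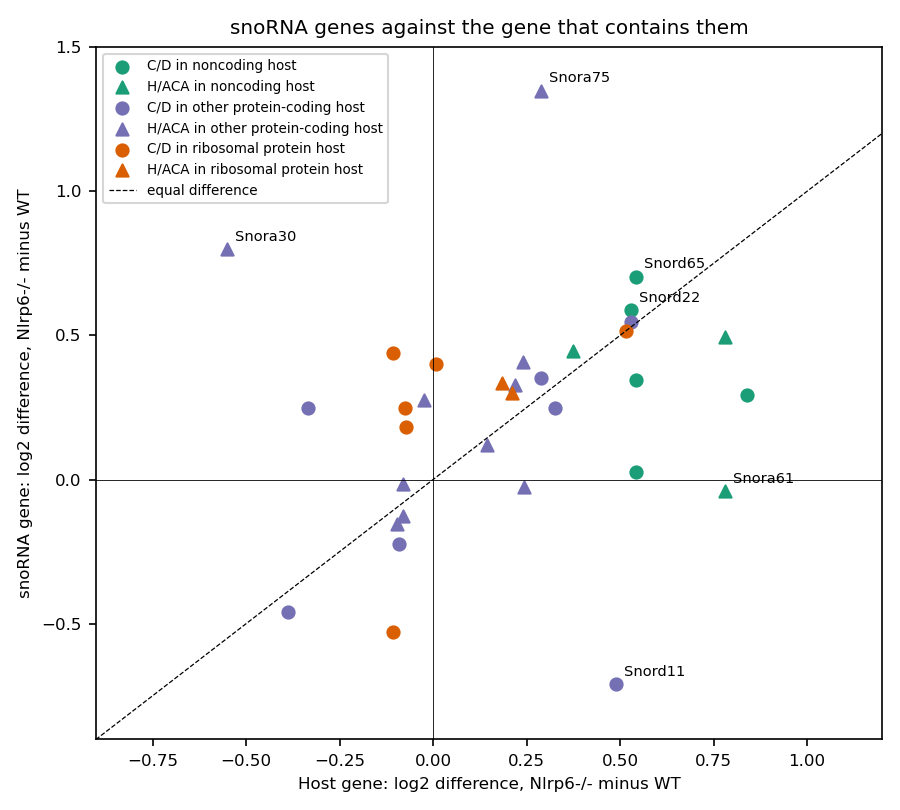
Log2 difference (Nlrp6-/- minus WT) of the host gene (x axis) against that of the snoRNA gene inside it (y axis) for the 33 members with 1 measured host; circles are C/D and triangles H/ACA members, colours give the kind of host, and the dashed line marks equal differences. Snora75 and Snora30 lie far above the line and Snord11 and Snora61 far below it, and the noncoding hosts all lie at 0.37 or more on the x axis.

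Many snoRNA hosts start transcription within a run of pyrimidines, a feature of genes for the translation machinery. The 60 bases around the annotated start (30 before and 30 from the start on) are shown for the hosts of the members that were at least 1.5-fold apart and lie in 1 gene, from the RefSeq promoter table of GRCm38.p6. The longest unbroken run of C or T that touches the 10 bases on either side of the start is in capitals, the first where runs tie. The sequences run 5′ to 3′ along the transcribed direction.
Rpl13a (host of Snord35a), chr7:45128716-45128775, minus strand: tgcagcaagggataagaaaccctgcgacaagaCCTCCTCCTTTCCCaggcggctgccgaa
2410006H16Rik (host of Snord65), chr11:62602847-62602906, plus strand: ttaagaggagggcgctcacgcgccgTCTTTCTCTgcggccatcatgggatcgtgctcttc
Snhg1 (host of Snord22), chr19:8723457-8723516, plus strand: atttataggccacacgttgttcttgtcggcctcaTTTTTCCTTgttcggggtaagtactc
Srcap (host of Snora30), chr7:127511953-127512012, plus strand: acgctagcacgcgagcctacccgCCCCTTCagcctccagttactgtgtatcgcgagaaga
Ncl (host of Snora75), chr1:86359426-86359485, minus strand: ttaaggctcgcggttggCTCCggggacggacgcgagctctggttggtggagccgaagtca
Nop58 (host of Snord11), chr1:59684976-59685035, plus strand: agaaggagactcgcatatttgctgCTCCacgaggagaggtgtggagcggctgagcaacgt
The run is 14 bases long in Rpl13a, 9 in 2410006H16Rik and in Snhg1, 7 in Srcap, and 4 in Ncl and in Nop58. Only the run of 2410006H16Rik covers the annotated start. Those of Rpl13a and Snhg1 begin after it, and the marked runs of Srcap, Ncl and Nop58 end before it. Ncl has a further run of 4 after the start, which ties with the marked one. The counts that follow thus score runs near the start. A run of at least 8 was present in 13.7% of all 32851 windows of the table. It was present in 3 of 7 windows of noncoding hosts of members, in 3 of 7 of ribosomal protein hosts and in 1 of 17 of other protein-coding hosts. A run of at least 8 of A or G, which is a C or T run on the opposite strand, was present in 15.1% of all windows and in 0, 0 and 2 of these. Long and short runs both occur among the hosts of members at least 1.5-fold higher.

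Noncoding snoRNA host genes were also taken as a list of 23, of which 20 had a probe set of their own and 13 passed the level. Of these 13, 12 were higher in Nlrp6-/-, 5 of them by 1.5-fold or more (38.5%, against 6.23% of all genes), with a median difference of 0.57. Snhg6 was at 7.06 in WT and 8.26 in Nlrp6-/-, Snhg5 at 4.39 and 5.31, and Snhg15 at 6.06 and 6.96. Zfas1, which hosts C/D snoRNAs, was at 8.23 and 9.11, and Snhg12 was the other gene past 1.5-fold. The exception in direction was Snhg17, at 4.60 and 4.33.

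A pair of like gene groups was set beside the snoRNAs. The 53 measured cytosolic ribosomal protein genes, whose products are assembled onto the RNA that snoRNAs modify, had a median difference of 0.04. Of the 53, 1 was at least 1.5-fold higher (Rps27) and 0 lower, against 6.23% and 3.06% of all genes. The 128 measured microRNA genes, which also give short probe sets, had a median of -0.12. Of these, 0 were at least 1.5-fold higher and 13 were at least 1.5-fold lower (10.2%, against 3.06% of all genes), led by Mir505 at 6.31 in WT and 4.91 in Nlrp6-/-.

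**Figure D3:**
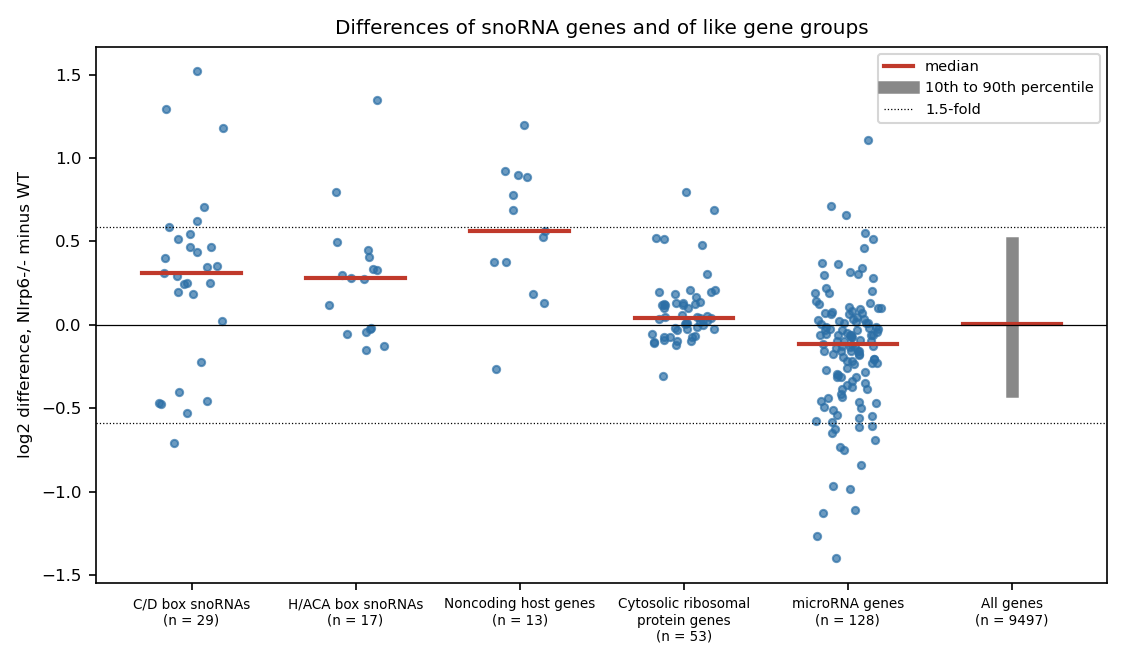
Log2 difference (Nlrp6-/- minus WT) of each measured gene (points) with the group median (red line) for C/D and H/ACA snoRNAs, noncoding host genes, cytosolic ribosomal protein genes and microRNA genes; the grey bar spans the 10th to 90th percentile of all 9497 genes, and dotted lines mark 1.5-fold. Medians are 0.31, 0.28, 0.57, 0.04 and -0.12 in that order, against 0.01 for all genes; points are measured differences, without the bound for levels under the floor.

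Other small noncoding RNAs did not share a direction. Rnu3a, the U3 snoRNA, is a C/D box RNA whose symbol the rule does not take. Its level was 6.15 in WT and 6.86 in Nlrp6-/-, which is 0.71 apart. The small Cajal body RNAs, which guide modification of spliceosomal RNA, were lower in all 3 measured, with Scarna17 at 9.17 and 8.19. Rnu11 was at 8.21 and 8.06 and Rnu12 at 6.996 and 6.64, both RNAs of the minor spliceosome. Terc, the telomerase RNA, which has an H/ACA domain, was at 5.51 and 5.27. Rn7sk was at 11.41 and 11.47, Rpph1, the RNA of ribonuclease P, at 8.72 and 8.53, Vaultrc5 at 6.21 and 6.58, and the Y RNA gene Rny3 at 3.59 and 4.48.

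The genes of the core proteins that snoRNAs bind were measured in part, and of the 5 past the level 1 was at least 1.5-fold higher. Over all genes past the level, 51.1% were higher by any amount and 6.23% by at least 1.5-fold. Of the C/D core, Snu13, which recognises the kink-turn of the RNA, was at 7.47 in WT and 8.15 in Nlrp6-/-, past 1.5-fold. Nop58 differed by 0.49 and Nop56, at 6.21 and 6.55, by 0.35. Of the H/ACA core, Nop10 was at 6.47 and 6.99 and Nhp2 at 3.54 and 3.996. The synthase gene Dkc1 and its partner Gar1 were below the level threshold, Dkc1 at 2.84 and 3.12 and Gar1 at 3.23 and 3.20. The 5 past the level were higher by 0.35 to 0.68. Fbl, the methyltransferase gene, was not analysed here.

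The genes that assemble the particles were mixed in direction, and those that trim and turn over snoRNAs were mostly slightly higher. For comparison, 51.1% of all genes past the level were higher by any amount and 6.23% by at least 1.5-fold. Of 9 measured assembly genes, 4 were higher and 5 lower with a median of -0.10. Nufip1, a C/D assembly factor, was at 5.51 and 6.14 and was the only one past 1.5-fold. Ruvbl2, an ATPase of the assembly complex, was at 4.15 and 4.70 while its partner Ruvbl1 was at 4.41 and 4.06. Coil, the Cajal body protein, was at 3.31 and 2.93, under the floor in Nlrp6-/-. Of 12 measured processing and turnover genes, 10 were higher with a median of 0.24, and 0 passed 1.5-fold. The exosome subunit genes Exosc7 and Exosc1 differed by 0.42 each, and Dbr1, which opens the intron lariats that carry snoRNAs, by 0.39. Exosc8 differed by 0.31.

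Of 20 measured genes of the processome, the complex around U3 that makes the small subunit, 11 were higher with a median of 0.05. That is near the 51.1% of all genes past the level that were higher. Past 1.5-fold were Imp3, with 6.19 in WT against 7.22 in Nlrp6-/-, and Nop14, with 4.01 against 4.71. These 2 of 20 stand beside 6.23% of all genes. Rcl1 differed by 0.54 and Bms1 by -0.41. Of 9 measured genes of RNA polymerase I and the nucleolus, 5 were higher with a median of 0.11 and 0 passed 1.5-fold. Taf1b, of the promoter factor, differed by 0.56 and the initiation factor gene Rrn3 by -0.46. Taf1d was at 10.31 and 9.94, and the transcription factor gene Ubtf at 6.00 and 5.67.

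**Figure D4:**
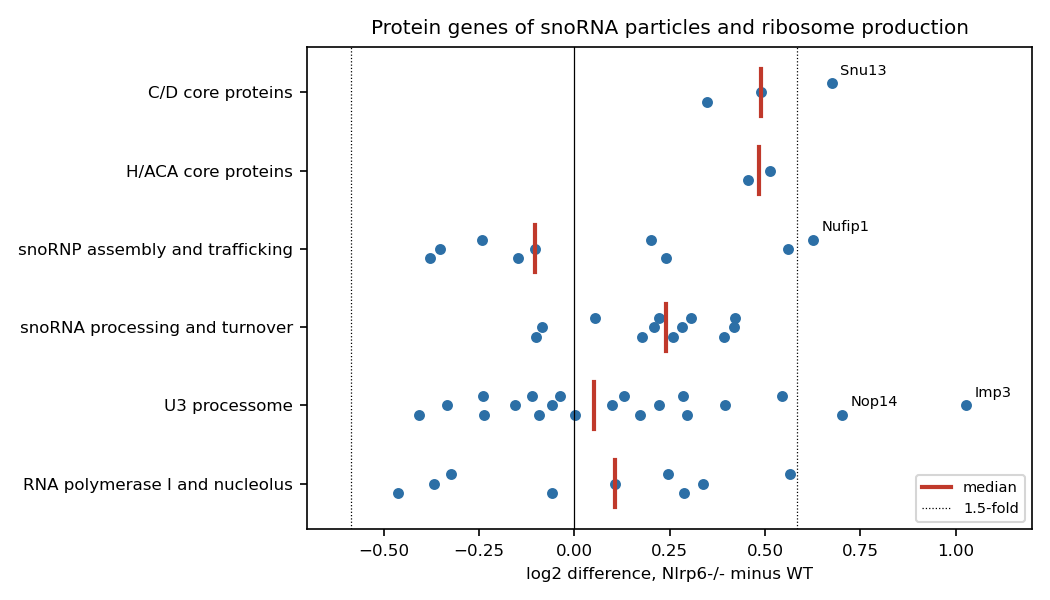
Log2 difference (Nlrp6-/- minus WT, x axis) of each measured gene (points, spread vertically for legibility) in 6 lists of snoRNA particle and ribosome production genes, with list medians in red and dotted lines at 1.5-fold. The 5 core protein genes past the level lie to the right of 0 and the other lists spread to both sides; Snu13, Nufip1, Imp3 and Nop14 are past 1.5-fold.

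The identity of the sorted cells was checked on the same arrays. The 7 monocyte markers, including Ly6c2 (9.06 and 9.36) and Csf1r (9.40 and 9.28), were above the floor on both arrays, with 1, Fcgr1, at least 1.5-fold higher in Nlrp6-/-. Of 23 markers of T cells, neutrophils, epithelium, B and plasma cells and stroma, 18 exceeded the floor on 1 array or both, 9 were 1.5-fold or more higher in Nlrp6-/-, and 0 were lower. The 9 of 18 stand against 6.23% of all genes. Each list's levels were summed on the linear scale and are given as log2, to be compared between the arrays and not between lists, whose probes differ. In this sum the B and plasma cell list was at 9.38 in WT and 10.29 in Nlrp6-/-. The epithelial list was at 7.54 and 8.67, the stromal list at 8.57 and 9.62, the neutrophil list at 5.27 and 6.05 and the T cell list at 5.69 and 5.88. In the neutrophil list only Retnlg passed 1.5-fold, at 3.23 in WT, under the floor, and 5.21 in Nlrp6-/-. Ly6g was at 3.32 and 3.58, so the neutrophil sum rests mainly on Retnlg. The monocyte sum was 12.31 in WT and 12.18 in Nlrp6-/-. Krt20, Ms4a1, Camp, Mpo and Ngp were under the floor on both arrays, and the part of these other cells in the snoRNA differences was not tested. Fewer cells of a type and less RNA per cell cannot be told apart in such samples.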

How the data were processed

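Per the labels' protocols, RNA of the sorted cells was purified on small-sample spin columns, 10 ng was amplified to cDNA with a whole-transcriptome kit, and 3.7 µg of labelled cDNA was hybridised for 20 h at 48 °C. Per the labels, the authors computed log2 expression levels by robust multiarray average (RMA) with the oligo package in R 2.15.1, which equalises the distributions of the arrays, so a shift of all transcripts cannot be seen. The deposited log2 table has 41345 probe sets and medians of 2.87 in WT and 2.84 in Nlrp6-/-. Levels of different genes come from different probes, so their order says nothing of abundance, and brightness served only to choose genes. A snoRNA probe set does not tell the mature RNA from its host's intron.

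Genes were named from the platform annotation: 23521 probe sets had 1 symbol, 1814 several and 16010 none. Probe sets with several symbols were not used, and the brightest by mean was kept per gene, which left 22180 genes. Differences and medians were computed in Python 3.11.15 with pandas 2.3.3 and statsmodels 0.14.6, with no test, and the code was tested on simulated arrays. The members, lists and thresholds were chosen with earlier results of these data known. Named were the 8 highest and lowest differences and 5 brightest members of each class, those nearest the threshold, their hosts, all core protein genes, and the leading genes of other lists. The remaining members, and other list genes such as Rn7sk, Rpph1 or Ubtf, were named in addition after their values were seen. Alternatives were 3 other scalings, other level thresholds, the mean of probe sets, the mean of list members, and 2-fold. Leaving out imprinted snoRNA clusters was also tried. Measured differences in place of bounds were added after the data were seen.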

Additional observations from a re-analysis of the deposited data

Results flagged for a closer look

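Probe sets that carry several gene symbols were not used for any gene. Of these, 43 include a snoRNA symbol, 28 of them have values that differ from one another, and 18 of the 28 passed the level required of members. Among the 18, a difference of 1.5-fold was reached by 3 on the higher side in Nlrp6-/- and by 0 on the lower, with a median difference of -0.04 and a range from -0.35 to 1.30. This is signal outside the members described above, and which of the listed genes it belongs to is not known.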

How the results depend on the processing

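The C/D median ran from 0.21 to 0.33 and the H/ACA median from 0.12 to 0.30 over the alternatives, and both stayed above 0 under each of the 3 other scalings and each level threshold. Counting at 2-fold gave 2 C/D members higher, 0 lower and 1 H/ACA member higher. Counting measured differences without bounds gave 6 C/D members higher, the added one being Snord72. With means in place of medians, the difference was 0.090 for monocyte markers (median -0.12), 1.08 for B and plasma cell markers, 0.65 for stromal markers, -0.47 for small Cajal body RNAs and 0.072 for the Rnu genes (median -0.14). Without a level threshold the epithelial median was 0.68. Of 218 values recomputed for counts and medians, the other 209 moved by less than the receptor genes' SD of 0.19 or, for counts, by no more than 1.5 times. That bound is wide, since it holds the fall of the H/ACA median from 0.28 to 0.12. Some of the 209 could not move. Leaving out imprinted snoRNA clusters removed no member, and with the floor in place a lower level threshold could not add to the counts. Under the 3 other scalings, 0 of 24 values of the 8 members past 1.5-fold fell below it. These scalings were applied to levels that RMA had already normalised, and they moved the 8 differences little. The 8 were also chosen for passing 1.5-fold on the same 2 arrays. The count therefore says nothing of noise between samples. No paired analysis was possible because each genotype has 1 array. Genes near the floor are limited by signal over background.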
